A study of Mus musculus with 18 samples.

Results

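The genes described here are 55 members of the TGF-beta and BMP signaling pathways: ligands, receptors, Smad proteins and antagonists. They were taken by gene symbol from a table of 23228 genes, by a rule that used no measured value. The table held 1 RNA sequencing value per gene for each of 2 mouse embryonic tissues of the ICR strain, both labelled wild type. The first was the neural tube at E12.5, from which trypsin-dissociated cells positive for GFP had been sorted. In those embryos a transgene joined a 2.3 kb autoregulatory enhancer of Ptf1a (chromosome 2, 19351717 to 19354014, mm9) to a beta-globin basal promoter and GFP, so sorting followed the enhancer and not the Ptf1a protein. The second was whole pancreas at E15.5, which was not sorted and holds every cell type of the organ. Ptf1a is a basic helix-loop-helix factor needed for acinar cells of the pancreas and for inhibitory neurons of the dorsal neural tube.

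TGF-beta family ligands are secreted dimers that bring together type II and type I receptor kinases. The type II receptor activates the type I receptor, which phosphorylates a receptor-activated Smad. Smad1, Smad5 and Smad9 serve the BMP branch, Smad2 and Smad3 serve the TGF-beta and activin branch, and both branches use the common partner Smad4. BMPs from the roof plate pattern the dorsal neural tube, and in the developing pancreas TGF-beta family signals influence the balance of endocrine and exocrine cells and the mesenchyme.

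Levels were the authors' FPKM, a fragment count divided by transcript length and by library size, in which levels of different genes can be compared. Each label named 2 libraries but the table held 1 pooled value per tissue, so there was no replicate, no SD and no test. A call of higher needed a difference of at least 2 in log2(FPKM + 1), that is 4 times, and a level of 5 FPKM in the sample with more. A call of similar needed 5 FPKM in each sample and values within 2 times on that scale. Signed differences below are log2(FPKM + 1) in neural tube minus pancreas. Judged from the smallest steps between low values, 1 fragment on a transcript of 1 kb was worth about 0.0414 FPKM in the sorted cells and 0.0238 in pancreas, so the pancreas was sequenced about 1.74 times more deeply. Tissue, stage, sorting and RNA extraction differed between the same 2 samples and cannot be told apart.

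The labelled tissues carried their defining markers. All 9 markers of dorsal inhibitory neurons were called higher in the sorted cells, at 28.0 to 112 FPKM against 0 to 0.539. Of 10 acinar markers, 9 were called higher in pancreas. The other, Pnlip, was at 0 FPKM in the sorted cells and 1.03 in pancreas, under the minimum for a call. Ptf1a was at 22.5 FPKM in the sorted cells and 37.1 in pancreas. Mesenchyme, endothelium and macrophage markers differed too. The 15 mesenchyme markers summed to 67.8 FPKM in neural tube (0.327 to 15.8 each) and 1392 in pancreas (0.808 to 469 each), with 10 called toward pancreas and 1 toward neural tube. The 12 endothelial markers summed to 19.5 and 115 FPKM, with ranges of 0.239 to 5.23 and 1.11 to 24.3, and 5 were called higher in pancreas. The 9 macrophage markers summed to 7.46 and 232 FPKM, with ranges of 0.0300 to 3.37 and 1.66 to 106, and 6 were called higher in pancreas. No marker of these lists was at 0 in either sample. In such mixed samples, fewer cells of a type and less RNA per cell cannot be told apart.

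Of the 55 members, 4 were called higher in neural tube and 4 higher in pancreas, or 7.27% each way. Over all listed genes 4.76% were called higher in neural tube and 5.50% in pancreas. Among the 24 members that reached 5 FPKM in at least 1 sample the calls were the same 4 and 4, and of all genes at that level 10.3% and 11.9% were called. A member could only be called if it reached that level, so these shares are higher by construction. The calls toward neural tube were the type II receptor genes Acvr2b and Bmpr2 and the ligand genes Gdf11 and Gdf1. Those toward pancreas were the ligand gene Bmp7, the receptor genes Tgfbr2 and Acvrl1, and the coreceptor gene Tgfbr3. Of the 12 members with at least 5 FPKM on both sides 9 were similar (75%), beside 68.4% of all such genes. The median difference over all 55 members was -0.02, and that over all genes was 0. The split of 4 and 4 became 5 toward neural tube and 2 toward pancreas with equal totals, with housekeeping centring and with equal totals without the 50 highest genes of each sample. Those rescalings moved the median of genes with at least 1 FPKM on both sides from 0.02 to 0.57, 0.31 and 0.34.

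**Figure D1:**
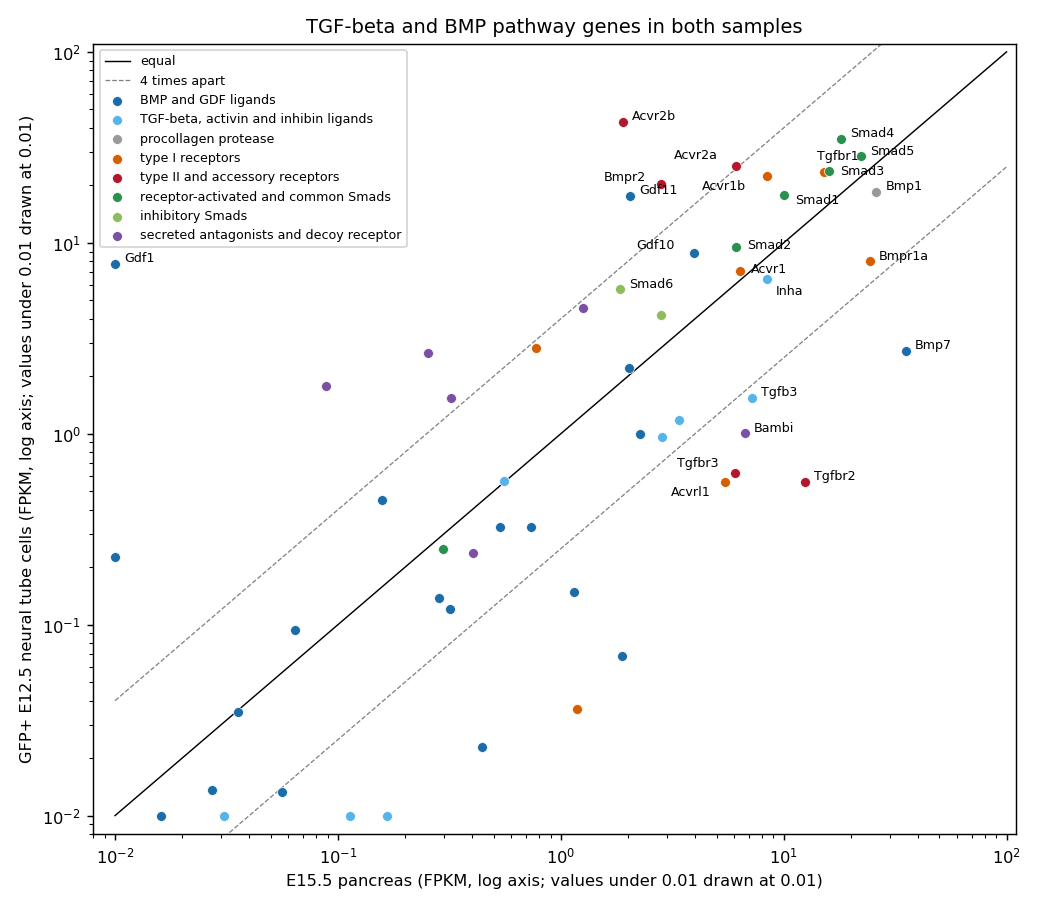
Level of each of the 55 members in pancreas (x axis) and in sorted neural tube cells (y axis), in FPKM on log axes, coloured by role. The solid line marks equal levels and the dashed lines a ratio of 4 with no pseudocount. Most Smads lie near the solid line, Acvr2b (43.1 against 1.91) far above it and Bmp7 (2.71 against 35.3) and Tgfbr2 (0.561 against 12.4) far below it.

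Type II and accessory receptors, 5 genes, held 4 of the 8 calls, 2 each way. All 5 reached 5 FPKM, and of all genes at that level 10.3% were called higher in neural tube and 11.9% in pancreas. Over all settings the calls of the group ran from 1 to 3 toward neural tube and from 0 to 2 toward pancreas. The promoters of 3 of the type II genes are shown with that of Gdf11, the ligand gene called higher in neural tube at the highest level. The sequences are from RefSeq on GRCm38.p6, 300 bases each, from 250 before to 50 after the annotated start, written in the direction of the gene. Capitals mark matches to the E box CANNTG, the kind of site bound by Ptf1a with an E protein, and to TGGGAA, the core of the site bound by Rbpj, searched on both strands. The windows are chr9:119401928-119402227 (plus strand) for Acvr2b, chr1:59764029-59764328 (plus strand) for Bmpr2, chr9:116175314-116175613 (minus strand) for Tgfbr2 and chr10:128891669-128891968 (minus strand) for Gdf11.
Acvr2b: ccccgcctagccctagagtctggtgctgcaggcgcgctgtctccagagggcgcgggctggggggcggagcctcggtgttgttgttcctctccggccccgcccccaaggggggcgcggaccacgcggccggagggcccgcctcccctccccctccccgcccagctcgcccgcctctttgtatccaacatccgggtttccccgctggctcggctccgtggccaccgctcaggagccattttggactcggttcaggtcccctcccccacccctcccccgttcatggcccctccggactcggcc
Bmpr2: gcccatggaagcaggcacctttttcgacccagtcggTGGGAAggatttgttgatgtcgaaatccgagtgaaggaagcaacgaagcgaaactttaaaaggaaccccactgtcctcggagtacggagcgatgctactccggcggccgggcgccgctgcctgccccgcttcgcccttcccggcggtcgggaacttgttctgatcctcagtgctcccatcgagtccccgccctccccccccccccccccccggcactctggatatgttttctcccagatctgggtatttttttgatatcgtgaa
Tgfbr2: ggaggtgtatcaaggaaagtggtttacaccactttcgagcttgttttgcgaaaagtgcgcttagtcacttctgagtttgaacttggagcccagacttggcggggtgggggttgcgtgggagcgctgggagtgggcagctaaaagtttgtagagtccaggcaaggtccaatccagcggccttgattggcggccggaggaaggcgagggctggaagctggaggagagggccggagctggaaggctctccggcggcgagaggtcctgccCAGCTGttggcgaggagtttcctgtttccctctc
Gdf11: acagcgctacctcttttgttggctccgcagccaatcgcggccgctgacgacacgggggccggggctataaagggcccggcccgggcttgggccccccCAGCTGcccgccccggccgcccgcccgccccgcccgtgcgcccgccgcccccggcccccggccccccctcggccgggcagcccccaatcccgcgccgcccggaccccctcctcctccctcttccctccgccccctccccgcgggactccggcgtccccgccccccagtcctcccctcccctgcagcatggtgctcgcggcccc

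The window of Acvr2b held 0 matches of either motif, Bmpr2 held 1 TGGGAA, and Tgfbr2 and Gdf11 held 1 E box each. A match describes letters and is not evidence of binding. Promoters were found for 37 of the 55 members, as 45 windows. An E box was present in 25 of the 45 (55.6%), beside 72.3% of all 32851 windows of that length, and TGGGAA in 11 (24.4%), beside 25.6%. GGCGCC, a GC-rich element that Smads can bind, was present in 11 (24.4%), beside 11.9%, and CAGAC, which contains the short Smad recognition element, in 22 (48.9%), beside 49.6%. The member windows were also richer in G and C, with a median of 64.0% against 52.7% for all windows and a median of 23 CG pairs against 7, and the part of base composition in these shares was not tested. The windows shown had 73.3% GC for Acvr2b, 59.3% for Bmpr2, 59.0% for Tgfbr2 and 80.7% for Gdf11. Members with no window in the table included Acvrl1, Bambi, Bmp1, Bmp2, Bmp3, Bmp7, Fst, Gdf3, Gdf5, Gdf6, Gdf9, Nog, Smad2, Smad4, Smad7, Tgfb3 and Tgfbr3.

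Among the 20 BMP and GDF ligand genes, the sorted cells carried mainly GDF transcripts and the pancreas mainly Bmp7. Gdf11, whose product is a close relative of myostatin that signals through activin receptors, was at 17.5 FPKM in the sorted cells and 2.05 in pancreas, a difference of 2.60 (chromosome 10, 128319351 to 128328774, mm9). It made up 41.7% of the summed FPKM of the ligand genes in neural tube and 4.00% in pancreas. Bmp7, a BMP of many epithelia that the roof plate also makes, was at 2.71 FPKM in the sorted cells and 35.3 in pancreas, a difference of -3.29 (chromosome 2, 172693513 to 172765822). Its share of the same sum was 6.44% in neural tube and 68.8% in pancreas. The ligand totals were nearer to each other, at 42.1 and 51.3 FPKM as deposited. Bmp7 was called higher in pancreas under all 10 alternatives, with differences from -3.65 to -2.39. The call of Gdf11 was lost with a pseudocount of 5 FPKM, at 1.68. The 8 duct and epithelial markers were all called toward pancreas as well, with sums of 8.29 and 1276 FPKM (0.137 to 2.59 each against 6.44 to 398) and none at 0. The part of epithelium or mesenchyme in the level of Bmp7 was not tested.

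Gdf1, a ligand of the Nodal class, was at 7.73 FPKM in the sorted cells and 0.00471 in pancreas (chromosome 8, 72853664 to 72855486). The pancreas value is below the 0.0509 FPKM that 3 fragments on this gene would give, so no ratio is given. Gdf1 shares a transcript with the ceramide synthase gene Lass1 on the same strand, which was at 0.722 and 0.828 FPKM. Its exons also overlap those of Upf1 on the other strand, at 38.2 and 13.7 FPKM, and the sources used here do not say whether counting used strand. How reads were divided among these genes was not tested, and the value of Gdf1 is uncertain. Its call was lost with a pseudocount of 5 and with a minimum of 10 FPKM. Gdf10, a divergent BMP relative also known as Bmp3b, was at 8.89 and 3.97 FPKM, a difference of 0.99.

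Bmp4, Bmp6 and Gdf7, known from the roof plate as Bmp7 is, were under 5 FPKM in both samples. Bmp4 was at 2.22 FPKM in the sorted cells and 2.03 in pancreas, and Bmp6 was at 0.999 and 2.27. Exons of Bmp6 overlap Txndc5, which was at 28.7 and 143 FPKM on the other strand, so the Bmp6 values are uncertain. Gdf7, a partner of Bmp7 there, was at 0.227 FPKM in the sorted cells and listed at 0 in pancreas. The roof plate marker Lmx1a was at 0.339 FPKM in the sorted cells, Wnt1 at 2.01 and Wnt3a at 0.744, while Lmx1b, which dorsal neurons also express, was at 14.9. Of the 9 roof plate markers 3 were called higher in neural tube, and the sums were 43.2 and 14.6 FPKM. Bmp2 was at 0.149 FPKM in the sorted cells and 1.15 in pancreas, and Gdf6 at 0.0682 and 1.88, both under the minimum for a call. The remaining ligands of this class stayed under 1 FPKM in both samples: Bmp3, Bmp5, Bmp8a, Bmp8b, Bmp10, Bmp15, Gdf2, Gdf3, Gdf5, Gdf9 and Gdf15. Exons of Bmp8b overlap those of Ppie on the other strand, and Bmp8a and Bmp8b are close copies, so their separate values are uncertain.

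All 3 TGF-beta genes were at a higher FPKM in pancreas, but none passed the rule. Tgfb3 was at 1.54 FPKM in the sorted cells and 7.21 in pancreas, with a difference of -1.69. It was called higher in pancreas with a pseudocount of 0.1 (-2.15) and with a threshold of 3 times. Tgfb1 was at 1.18 and 3.38 FPKM and Tgfb2 at 0.961 and 2.86, both under 5 FPKM in each sample. The sums of the 3 genes were 3.69 and 13.4 FPKM, and Tgfb3 was the most abundant in both samples, with 41.9% and 53.6% of the sum. Of the inhibin subunits, only Inha reached 5 FPKM. Inha encodes the alpha chain that turns activin subunits into inhibin, and it was similar at 6.45 and 8.42 FPKM. The activin chains were low. Inhbb was at 0.564 and 0.559 FPKM, Inhba and Inhbc were listed at 0 in neural tube and at 0.113 and 0.166 in pancreas, and Inhbe was at 0.0309 FPKM in pancreas. Bmp1, which despite its name is a protease that trims procollagen and cleaves the antagonist chordin, was similar at 18.5 and 26.1 FPKM.

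The type II receptors separated the samples. Acvr2b, an activin type II receptor, was at 43.1 FPKM in the sorted cells and 1.91 in pancreas, a ratio of 22.6 and a difference of 3.92 (chromosome 9, 119311562 to 119342619). Acvr2a, its paralog, was at 25.3 and 6.08 FPKM, a difference of 1.89 that falls just short of the rule. Bmpr2, the BMP type II receptor, was at 20.2 and 2.82 FPKM, a difference of 2.47 (chromosome 1, 59821481 to 59927703). Tgfbr2, the type II receptor for TGF-beta itself, went the other way, at 0.561 FPKM in the sorted cells and 12.4 in pancreas, a difference of -3.10 (chromosome 9, 115993415 to 116084383). In neural tube Acvr2b stood above 92.6% of all listed genes and Tgfbr2 above 43.3%, while in pancreas the same genes stood at 49.5% and 76.9%.

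Within each sample, shares of the summed type II receptor FPKM do not depend on how the samples are scaled to each other. Acvr2b made up 48.4% of that sum in neural tube and 8.21% in pancreas. Tgfbr2 made up 0.630% in neural tube and 53.5% in pancreas. Acvr2a took a like share of both, 28.3% and 26.2%, and Bmpr2 took 22.7% and 12.1%. The sum itself was 89.1 FPKM in the sorted cells and 23.2 in pancreas. Acvr2b was called higher in neural tube under all 10 alternatives, with differences from 2.80 to 4.43. The calls of Bmpr2 and Tgfbr2 were each lost with a pseudocount of 5 FPKM only, at 1.69 and -1.65. Acvr2a passed the rule under 5 of the 10 alternatives, 3 of them rescalings. Its exons overlap those of Orc4 on the other strand, which was at 9.18 and 14.5 FPKM.

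**Figure D2:**
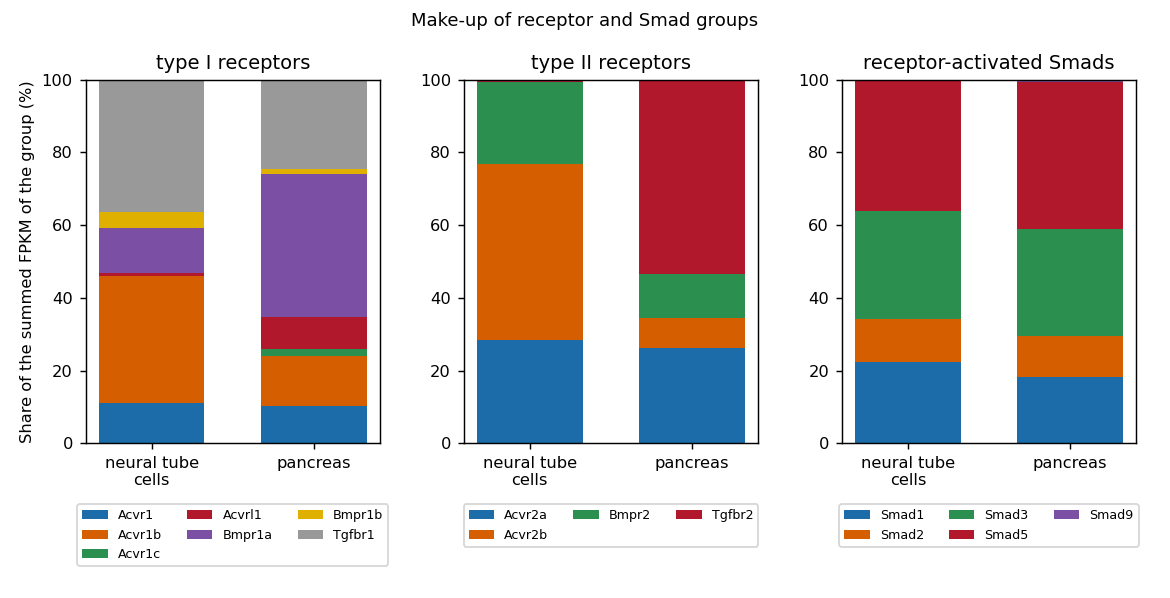
Share of the summed FPKM taken by each gene (y axis, percent) among type I receptors, type II receptors and receptor-activated Smads, in sorted neural tube cells and in pancreas. Tgfbr2 fills 53.5% of the type II bar in pancreas and 0.630% in neural tube, while the Smad bars of both samples are nearly the same.

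Tgfbr3, or betaglycan, presents TGF-beta ligands to Tgfbr2 and was higher in pancreas along with it. It was at 0.625 FPKM in the sorted cells and 6.04 in pancreas, a difference of -2.12 (chromosome 5, 107535589 to 107718648). Acvrl1, a type I receptor used mainly by endothelial cells, was at 0.559 and 5.47 FPKM, a difference of -2.05 (chromosome 15, 100958953 to 100975767). Eng, which encodes endoglin, the endothelial coreceptor that works with Acvrl1, was at 1.82 and 16.9 FPKM. The calls of Tgfbr3 and Acvrl1 lay just past the rule. Both were lost with a pseudocount of 5, a minimum of 10 FPKM and each of the 3 rescalings that raise neural tube values. The endothelial, mesenchyme and macrophage sums given above were also greater in pancreas. The part of those cells in the levels of Tgfbr2, Tgfbr3 and Acvrl1 was not tested.

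The type I receptors summed to 64.4 FPKM in the sorted cells and 61.8 in pancreas as deposited. Equal totals would raise neural tube values 1.54 times relative to pancreas, so the nearness of these sums rests on the scaling. Tgfbr1, which pairs with Tgfbr2 for TGF-beta and also serves Gdf11, led in neural tube with 36.3% of the sum, and Bmpr1a led in pancreas. Acvr1b, the activin type I receptor, was at 22.5 FPKM in the sorted cells and 8.44 in pancreas, 34.9% and 13.7% of the sum. Bmpr1a, a BMP type I receptor, was at 7.99 and 24.3 FPKM, 12.4% and 39.4% of the sum. The differences were 1.31 and -1.49, and neither passed the rule. The ratio of Bmpr1a to Acvr1b was 0.356 in neural tube and 2.88 in pancreas. Tgfbr1 was similar at 23.4 and 15.2 FPKM, 36.3% and 24.6% of the sum. That call was lost with equal totals, at 1.19, and with a limit of 1.5 times. The FPKM of Tgfbr1 was 41.7 times that of Tgfbr2 in neural tube and 1.22 times in pancreas. Acvr1, a type I receptor of BMPs, was similar at 7.12 and 6.39 FPKM. Bmpr1b was at 2.82 and 0.773 FPKM and Acvr1c, a Nodal and activin receptor found in endocrine cells, at 0.0360 and 1.19, both under the minimum for a call.

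As deposited, the Smads that carry the signal differed by under 2 times between the samples. All 5 of the receptor-activated and common Smad genes at 5 FPKM or more were similar, beside 68.4% of all genes at that level in both samples. Smad5 was at 28.4 FPKM in the sorted cells and 22.1 in pancreas, Smad3 at 23.6 and 16.0, and Smad1 at 17.7 and 10.0. Smad2 was at 9.48 and 6.14 FPKM, and Smad4, the common partner, at 35.0 and 18.1, with the greatest difference of the 5 at 0.91. Each was somewhat higher in neural tube under all settings tried, by 0.24 to 1.51. The similar calls of Smad1 and Smad4 were lost with the 3 rescalings that raise neural tube values, and those of Smad2 and Smad3 with equal totals. Those of Smad1 and Smad4 were also lost with a limit of 1.5 times, and that of Smad2 with a minimum of 10 FPKM. Smad9 was under 1 FPKM in both. The ratio of the BMP-branch Smads to Smad2 and Smad3 was 1.40 in neural tube and 1.46 in pancreas, a quantity that rescaling cannot change.

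**Figure D3:**
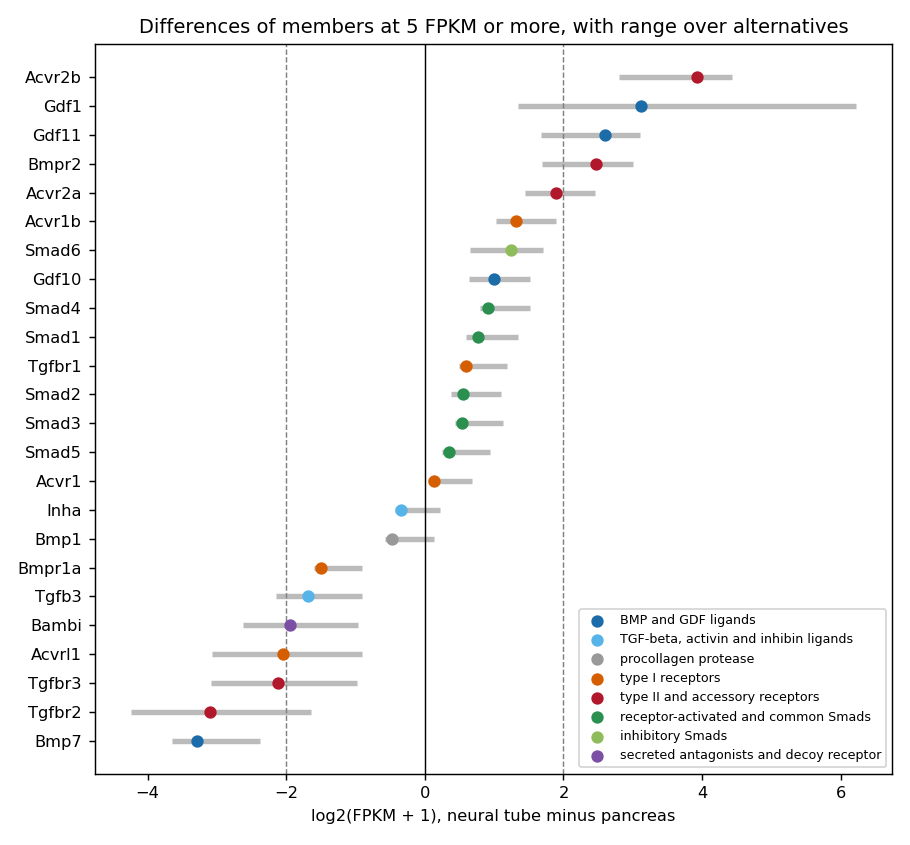
Difference in log2(FPKM + 1), neural tube minus pancreas, for the 24 members that reached 5 FPKM in at least 1 sample. Points are the values as deposited, grey bars the lowest and highest value over these and the 10 alternatives, and dashed lines the rule of 2. Acvr2b and Bmp7 keep to the outer side of the dashed lines over their whole bars, and the Smad genes stay between them.

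The inhibitory Smads and the 4 secreted antagonists described here were at a higher FPKM in neural tube without passing the rule. Smad6, which blocks BMP signaling and is itself induced by it, was at 5.71 FPKM in the sorted cells and 1.85 in pancreas, a difference of 1.24. Smad7, which blocks both branches, was at 4.18 and 2.81. Chrd, which encodes the secreted BMP binder chordin, was at 4.56 and 1.26 FPKM. Grem1, or gremlin, was at 2.66 and 0.255, Nog, or noggin, at 1.78 and 0.0882, and Fst, the activin binder follistatin, at 1.54 and 0.321. None of these 4 antagonists reached 5 FPKM, so none could be called. Bambi, a pseudoreceptor that lacks a kinase domain, differed the other way, at 1.00 and 6.70 FPKM. Its difference of -1.94 was just short of the rule, and it was called higher in pancreas with a pseudocount of 0.1 (-2.62), with upper quartile scaling (-2.02) and with a threshold of 3 times.

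Other extracellular regulators of the pathway, a list of 33 genes of which 32 were in the table, held 3 calls toward neural tube and 3 toward pancreas. Of the 32, 12 reached 5 FPKM, and of all genes at that level 10.3% and 11.9% were called. Toward neural tube were Rgma at 48.1 FPKM against 3.99 and Rgmb at 70.0 against 9.78, both membrane-anchored BMP coreceptors of the repulsive guidance family, and Crim1, a BMP binder, at 14.1 against 2.44. Toward pancreas were the secreted protease Htra1 at 0.363 FPKM against 17.9, the BMP antagonist Sostdc1 at 0.195 against 8.59, and Eng. The BMP binder Twsg1 was similar at 18.1 and 29.2 FPKM. Nbl1 was at 7.35 and 25.7 FPKM and Ltbp3, which stores latent TGF-beta in the matrix, at 3.20 and 9.12, neither past the rule. The list median was -0.35, beside 0 for all genes. Over all settings the calls of the list ran from 2 to 3 toward neural tube and from 1 to 7 toward pancreas.

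None of 30 intracellular regulators passed the rule of higher in either direction (0 calls), although 28 had the 5 FPKM it needs. Of all genes at that level 10.3% were called higher in neural tube and 11.9% in pancreas. Of the 23 with at least 5 FPKM on both sides 15 were similar (65.2%), beside 68.4% of all such genes. The largest differences toward neural tube were those of the ubiquitin ligase gene Nedd4l, at 17.0 FPKM against 3.92, and of the coactivator genes Crebbp, at 17.2 against 4.12, and Ep300, at 20.3 against 6.27. Nedd4l and Crebbp were 4.34 and 4.18 times higher in neural tube in FPKM itself, and fell short of 4 times with the pseudocount of 1 FPKM. Those toward pancreas were the phosphatase genes Ctdspl, at 2.59 FPKM against 10.2, and Ctdsp1, at 16.5 against 42.3, and the gene of the caspase inhibitor Xiap, at 5.25 against 14.3. Tgif1, a Smad corepressor, was at 12.2 and 13.2 FPKM, Fkbp1a, whose product holds type I receptors inactive, at 111 and 124, and Lemd3, a nuclear envelope Smad binder, at 7.11 and 5.74. With equal totals 3 genes of the list were called higher in neural tube. That count was 2 with a pseudocount of 0.1, with housekeeping centring and with equal totals without the 50 highest genes of each sample. A threshold of 3 times gave 2 toward neural tube and 1 toward pancreas.

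Among genes known as BMP targets the calls were toward neural tube, and among genes known as TGF-beta targets they were toward pancreas. Of 13 BMP target genes 4 were called higher in neural tube and 0 in pancreas, with a median of 0.63. They were the homeobox genes Msx3, at 60.0 FPKM against 0.0101, Msx1, at 6.73 against 0.0608, and Msx2, at 5.37 against 0.0710, and the helix-loop-helix inhibitor gene Id4, at 36.2 against 4.78. Msx1 and Msx2 are also on the roof plate list, and of the other 11 genes 2 were called, with a median of 0.07. The part of cell type in these calls was not tested. The Id genes, direct targets of BMP Smads in many cells, were not of one kind. Id1 was similar at 51.5 FPKM in the sorted cells and 33.0 in pancreas, Id3 was at 80.5 and 36.8, and Id2 was at 27.3 and 109, a difference of -1.95. Hey1 was at 6.36 and 3.45 FPKM.

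Of 18 TGF-beta target genes 13 reached 5 FPKM in either sample. Of the 18, 9 were called toward pancreas and 0 toward neural tube (median -1.65), beside 5.50% and 4.76% of all listed genes. The largest differences were those of the matrix genes Postn, at 0.578 FPKM against 78.0, Col1a2, at 10.3 against 264, and Col1a1, at 10.9 against 244. Cyr61 was similar at 18.3 and 11.0 FPKM, as was Tsc22d1 at 150.2 and 131. Klf10, a zinc finger gene induced early by TGF-beta, was at 4.31 and 8.64 FPKM. Col1a1, Col1a2 and Acta2 are also on the mesenchyme list, and of the other 15 genes 6 were called higher in pancreas, with a median of -0.86. Many of these targets are matrix genes of mesenchymal cells, whose marker sums are given above, and the part of those cells in this difference was not tested. The medians of both target lists kept their sign under all 10 alternatives. With a pseudocount of 5 the count for TGF-beta targets was 3 and that for BMP targets was 2. Over all settings these counts ran from 3 to 9 and from 2 to 4. With upper quartile scaling and with a threshold of 3 times, 1 BMP target was called toward pancreas.

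**Figure D4:**
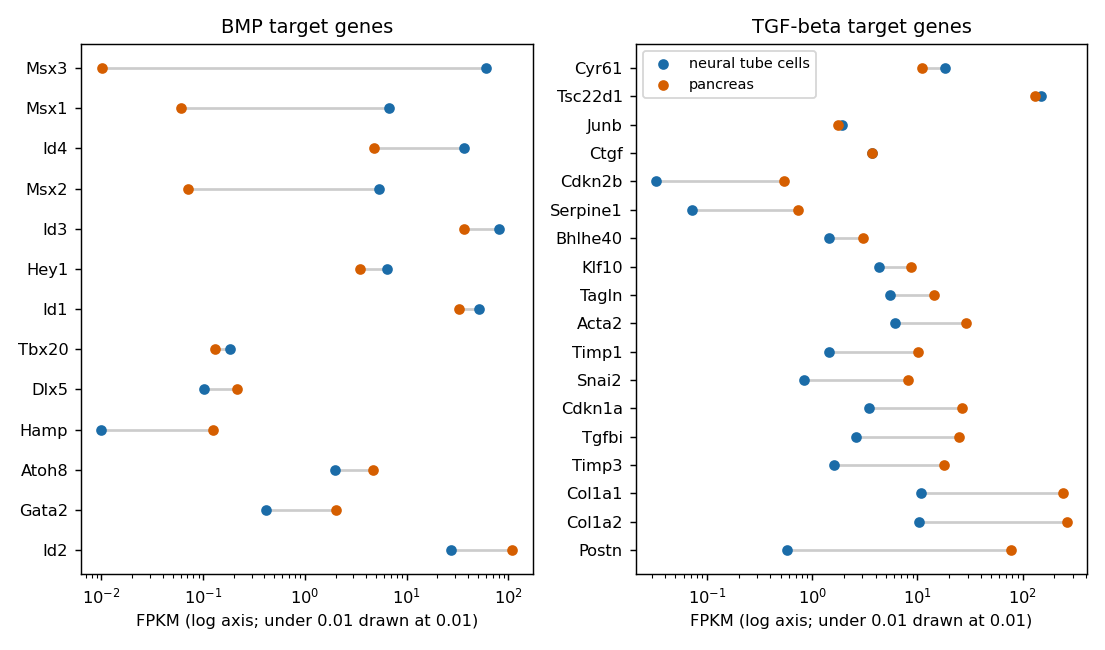
FPKM (log axis) of each BMP target gene (left) and TGF-beta target gene (right) in sorted neural tube cells (blue) and pancreas (orange), ordered by difference. Msx3, Msx1, Id4 and Msx2 lead toward neural tube on the left, and Postn, Col1a2 and Col1a1 toward pancreas on the right.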

How the data were processed

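RNA of 2 samples was used. Of the 18 samples of the series, the chromatin samples are not analysed here. The FPKM values are those the authors deposited, 1 per gene and tissue, read as pooled over the 2 libraries each label names. CASAVA, TopHat, TopHat2 2.0.4 and Cuffdiff 2.0.2 and the build mm9 were listed, per the submitters' processing notes, without role or order. The gene annotation was not given in the sources used here. RNA came from a column kit for sorted cells and from Trizol for pancreas, per the labels' protocols. These also name Illumina's mRNA-seq preparation for both tissues and TruSeq for pancreas only.

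A rule of size on log2(FPKM + 1) made the calls across all 23228 genes, with no statistical test. Named were all members at 5 FPKM or more, and of each other pathway list the 3 greatest differences in each direction and the 3 smallest among genes at that level, with Id1 to Id4. The rule for members used symbols only, but members and lists were chosen with earlier results of these data known, so the choice was not independent of the data. Coordinates and exon overlaps came from GENCODE M1 on NCBIM37, the build also called mm9, in which all 55 members were found. The values of 1 member are not reported here. The depth step was the most frequent low value of FPKM times length among genes with 1 annotated transcript (1173 in neural tube and 1728 in pancreas), and is approximate. Values were computed with Python 3.11.15, numpy 2.4.6 and pandas 2.3.3. Alternatives were pseudocounts of 0.1 and 5 FPKM, no minimum and a minimum of 10 FPKM, 5 rescalings of the samples, and thresholds of 3 and 1.5 times.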

Additional observations from a re-analysis of the deposited data

How the results depend on the processing

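No paired analysis was possible because the table held 1 pooled value per tissue. For the same reason no replicate could be left out. The 4 members called higher in neural tube became 1 with a pseudocount of 5 FPKM, and 3 to 5 under the other settings. The 4 called higher in pancreas became 1 with a pseudocount of 5, and 2 with a minimum of 10 FPKM, with equal totals, with housekeeping centring and with equal totals without the 50 highest genes of each sample. They were 4 to 6 under the remaining settings, among them differences with no pseudocount, an alternative chosen after seeing the data (5 and 6). The 9 similar members became 34 with no minimum and 5 with equal totals. The median difference of all members, -0.02, moved to -0.16 with a pseudocount of 0.1, to 0.68 over members at 10 FPKM or more and to 0.087 with equal totals. The split of all calls, 46.4% toward neural tube, was 66.8% with equal totals, 57.8% with housekeeping centring and 58.8% without the highest genes. Of 240 values of single members under an alternative, 15 lost a call of higher, 10 gained one and 0 reversed. A call of similar was lost by 15 and gained by 2. Values with no call of higher before or after moved by over 1.5 times in 8 cases, and some of these also lost a call of similar. Depth limits the lowest members: 8 were under the level of 3 fragments in neural tube and 4 in pancreas.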

Other observations

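Genes that process and activate TGF-beta family ligands, a list of 15 chosen after the values were seen, were at a higher level in pancreas for 12 genes and in neural tube for 3. Of these, 2 were called higher in pancreas and 1 in neural tube, and the list median was -1.26. A call needs 5 FPKM in at least 1 sample, which 10 of the 15 genes reached. Among all genes at that level, 11.9% had a call toward pancreas and 10.3% toward neural tube. Signed differences of all 23228 listed genes were below 0 for 11484 and above 0 for 9279, with a median of 0. Itgb8, the integrin chain that releases latent TGF-beta at the cell surface in the nervous system, was at 8.54 FPKM in the sorted cells and 0.387 in pancreas. Itgb6, its epithelial counterpart in that role, was at 0.00825 and 1.42 FPKM, under the minimum for a call. Their common partner Itgav was at 2.09 and 8.18 FPKM. The extracellular protease gene Adamts1 was at 1.71 and 42.5 FPKM, and Itgb1, an integrin chain with many partners, at 22.6 and 120.5. Furin and Pcsk7, convertases that cleave ligand precursors, were similar, Furin at 7.67 and 10.1 FPKM and Pcsk7 at 9.33 and 6.80.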
